A study of Mus musculus with 4 samples.

Results

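The genes described here build and serve the photoreceptor's connecting cilium, the narrow bridge through which the outer segment receives its proteins. They are 47 named genes of the BBSome, of intraflagellar transport (IFT), of the transition zone and of ciliary trafficking, chosen by gene name. No measured value entered the rule, but the list was made with earlier results of these data known. Of the 47, 45 were measured among 19421 genes, and Arl6 and Arl13b were not analysed here. Each gene is represented by 1 microarray probe set, the one with the highest mean over all arrays where several carry its symbol.

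Levels were compared between knockout mice, Nrlflox/flox with CAG-CreERTM, and control mice, Nrlflox/+ with CAG-CreERTM. Nrl encodes the transcription factor that makes and maintains rods. All mice received 4-hydroxytamoxifen on each of postnatal days 42 to 44, which activates the Cre recombinase, so that recombination was started in retinas that had already matured. Retinas were taken on day 63, that is 19 days after the last injection. Each genotype had 2 arrays, and each array held RNA from 4 whole retinas of 2 animals. The controls carried a floxed allele and the recombinase too, so that recombination could remove that copy of Nrl in them. The CAG promoter is active in most cell types, so recombination was not restricted to photoreceptors. The sources used here give neither the mouse strain nor the share of cells that recombined.

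A photoreceptor outer segment is a modified primary cilium that sheds and rebuilds its membrane discs throughout life, and every protein in it is made in the inner segment and carried across the connecting cilium. IFT trains, 2 protein complexes moved outward by kinesin-2 (IFT-B leading) and back by dynein-2 (IFT-A needed), travel along its microtubules. The BBSome removes and sorts membrane proteins, the transition zone gates the entrance, and lipid-binding carriers bring in proteins such as rod transducin. Inherited defects of many of these genes cause retinitis pigmentosa, Leber congenital amaurosis, Bardet-Biedl, Joubert or Usher syndrome.

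Most of the ciliary genes differed little between the genotypes. None of the 45 was called at an adjusted p under 0.05 by limma, where 0.201% of all genes measured were. In so short a list a count of 0 is near that share. The median log2 difference, knockout minus control, was −0.04, against 0.00 over all genes, and the median size of a difference regardless of sign was 0.09 in both. An unadjusted p under 0.05 was found for 6 members. Of these, 3 were higher in the knockout, the IFT-B gene Ift57, the protocadherin gene Pcdh15 and the kinase gene Mak. The other 3 were lower, the RPGR-interacting gene Rpgrip1, the BBSome scaffold gene Bbs9 and the transducin carrier gene Unc119. This is 6 of 45 members (13.3%), where 7.07% of all genes had an unadjusted p under 0.05. The 3 higher members compare with 3.71% of all genes and the 3 lower with 3.37%.

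Promoter sequences of these 6 genes are shown because they are the members with the largest differences between the genotypes in each direction. The windows run from 250 bases before to 50 bases after the annotated start of the gene, 5′ to 3′ on the gene's own strand, and come from RefSeq on build GRCm38.p6. Where a gene has several annotated starts the most upstream was taken. Ift57 lies at chr16:49699044-49699343 (plus strand), Pcdh15 at chr10:73821617-73821916 (plus strand) and Mak at chr13:41079657-41079956 (minus strand). Rpgrip1 lies at chr14:52110653-52110952, Bbs9 at chr9:22475465-22475764 and Unc119 at chr11:78343245-78343544, all on the plus strand. Capitals mark matches, on either strand, to 3 short motifs, TAATCC (bound by Crx and Otx homeodomain factors of photoreceptors), TGCTGA (the core of the site of Maf factors, the family of Nrl) and GTTGCC (one arm of the X-box, which Rfx factors of ciliated cells bind).
Ift57: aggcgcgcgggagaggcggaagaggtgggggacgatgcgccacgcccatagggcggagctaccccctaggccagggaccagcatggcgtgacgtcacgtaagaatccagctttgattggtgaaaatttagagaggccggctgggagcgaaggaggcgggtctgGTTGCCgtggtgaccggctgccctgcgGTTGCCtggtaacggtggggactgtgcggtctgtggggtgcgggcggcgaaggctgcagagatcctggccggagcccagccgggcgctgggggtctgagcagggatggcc
Pcdh15: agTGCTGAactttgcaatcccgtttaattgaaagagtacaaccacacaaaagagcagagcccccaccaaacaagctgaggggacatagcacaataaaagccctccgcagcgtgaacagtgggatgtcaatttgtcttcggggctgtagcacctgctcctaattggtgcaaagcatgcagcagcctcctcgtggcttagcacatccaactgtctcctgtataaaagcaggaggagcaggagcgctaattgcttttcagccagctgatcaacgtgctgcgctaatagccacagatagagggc
Mak: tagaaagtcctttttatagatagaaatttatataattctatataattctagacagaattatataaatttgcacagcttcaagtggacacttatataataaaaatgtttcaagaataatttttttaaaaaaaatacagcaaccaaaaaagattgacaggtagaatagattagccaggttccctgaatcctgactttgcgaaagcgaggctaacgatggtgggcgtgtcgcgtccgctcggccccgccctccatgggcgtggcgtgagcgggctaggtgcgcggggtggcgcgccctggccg
Rpgrip1: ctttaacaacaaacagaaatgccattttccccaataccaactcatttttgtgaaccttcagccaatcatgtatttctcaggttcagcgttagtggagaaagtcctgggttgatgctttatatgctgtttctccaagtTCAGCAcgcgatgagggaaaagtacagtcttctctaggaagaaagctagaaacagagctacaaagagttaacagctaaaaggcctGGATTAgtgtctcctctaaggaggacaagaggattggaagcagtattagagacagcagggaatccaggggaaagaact
Bbs9: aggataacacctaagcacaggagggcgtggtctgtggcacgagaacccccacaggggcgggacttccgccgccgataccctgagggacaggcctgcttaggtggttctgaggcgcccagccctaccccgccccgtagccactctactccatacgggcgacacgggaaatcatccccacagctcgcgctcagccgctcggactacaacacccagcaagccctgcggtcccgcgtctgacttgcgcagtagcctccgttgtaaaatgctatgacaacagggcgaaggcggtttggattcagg
Unc119: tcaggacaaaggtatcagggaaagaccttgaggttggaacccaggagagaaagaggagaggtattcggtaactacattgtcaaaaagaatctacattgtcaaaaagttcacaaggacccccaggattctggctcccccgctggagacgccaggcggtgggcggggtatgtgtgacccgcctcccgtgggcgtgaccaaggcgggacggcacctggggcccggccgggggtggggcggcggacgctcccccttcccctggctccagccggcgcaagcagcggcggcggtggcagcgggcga

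The Ift57 window held 2 copies of the X-box arm, 87 and 60 bases before the start, on the gene's strand. The Rpgrip1 window held the Maf core 113 bases and the homeodomain motif 28 bases before the start, both on the opposite strand, and the Pcdh15 window held the Maf core 248 bases before the start. The windows of Mak, Bbs9 and Unc119 held none of these letters. Over the 43 members with a promoter in the table (all but Ift80, Ift81, Ift122 and Tmem67), the X-box arm was present in 17 (39.5%), against 12.8% of 17492 protein-coding genes. The Maf core was present in 8 members (18.6%), against 17.9% of protein-coding genes, and the homeodomain motif in 2 (4.65%), against 6.50%. The member windows had a median GC content of 59.7%, against 56.3% for protein-coding genes. A match is a description of letters and was not tested as a binding site.

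In the retinas themselves, the level of Nrl was 7.57 and 7.05 in knockout retinas, against 8.21 and 8.13 in control retinas (log2 scale), so the groups did not overlap. The difference was −0.86 (SE 0.18, limma adjusted p = 0.289). The sources used here do not say whether its probes fall inside the deleted part, which limits this as a check of the deletion. The median difference was −0.63 over 10 rod markers, with 3 called lower, and 1.19 over 10 markers of reactive glia, with 4 called higher. It was −0.13 over 10 cone markers and 0.42 over 12 microglia markers, with 2 called higher in each, where 0.201% of all genes were called. Over 8 Müller glia markers it was 0.01 (−0.37 to 0.89), and over 10 retinal pigment epithelium markers −0.12, with 0 called in either. Of the listed markers 11 were thus called, against 2 with the replicate number fitted as a block. Without control replicate 1 or control replicate 2 there were 0, without knockout replicate 1 there were 2, and without knockout replicate 2 there were 3, counts added after the data were seen. The mean level of the rod list was 9.83 and 9.89 in knockout retinas, against 10.81 and 10.77 in control retinas, and that of the reactive glia list was 7.11 and 7.20 against 6.14 and 6.07. Markers of the retinal pigment epithelium, which lies against the photoreceptors and makes some of the same proteins, had mean levels of 6.10 and 6.05 in knockout retinas, against 6.33 and 6.07 in control retinas. In whole retina, fewer cells of a type and less RNA per cell cannot be told apart, and the part of these cell type shifts in the ciliary results was not tested.

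**Figure D1:**
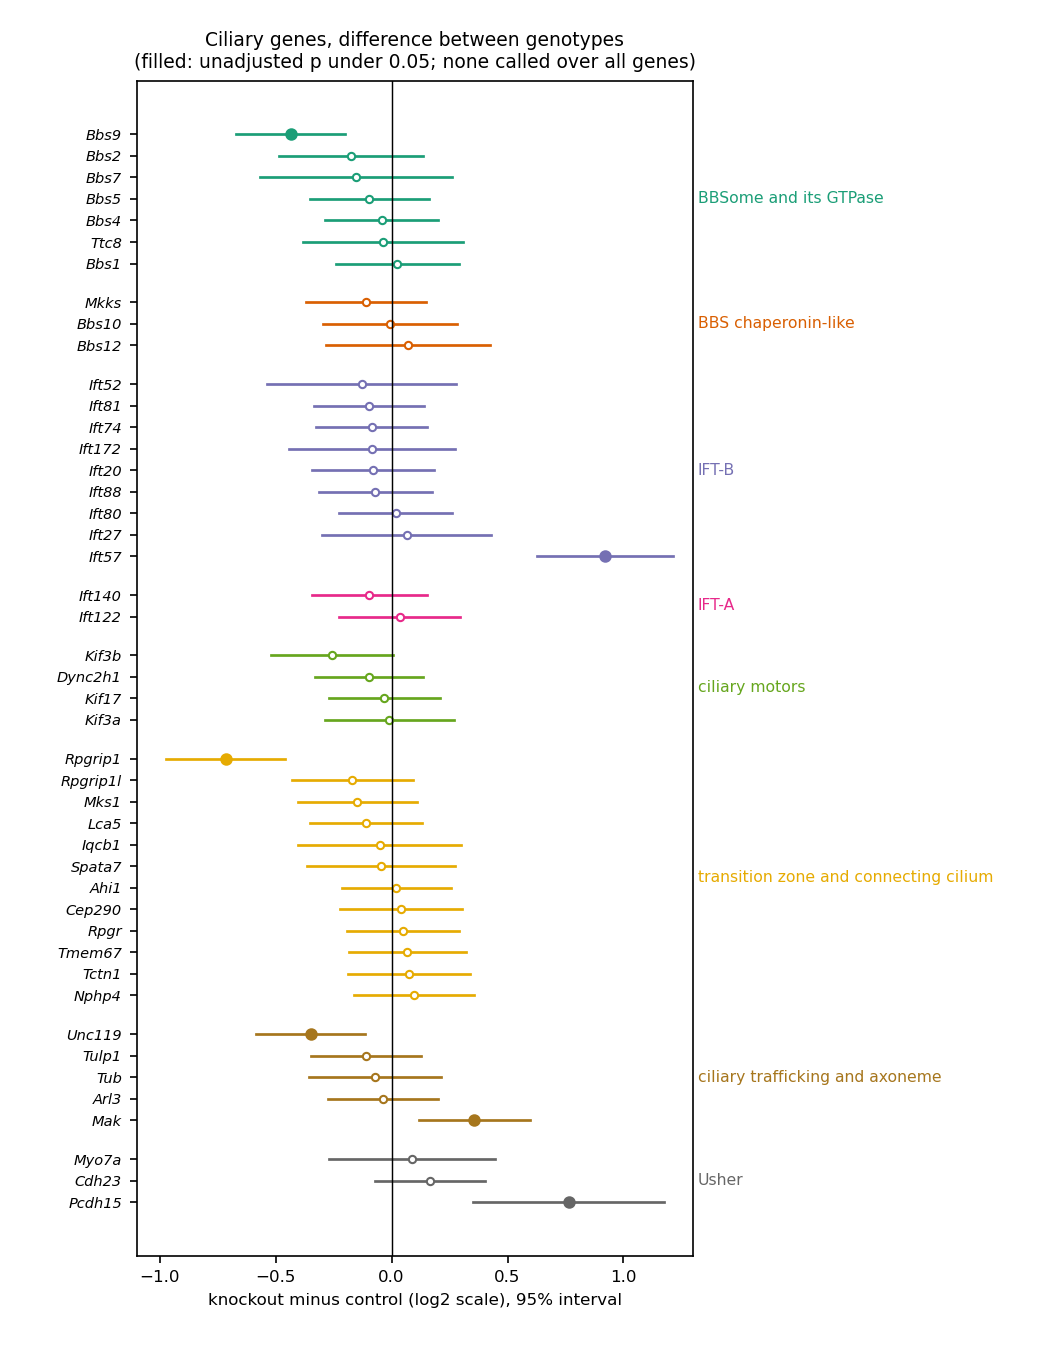
Difference between genotypes (knockout minus control, log2 scale, horizontal axis) with its 95% interval for the 45 measured ciliary genes, grouped by role. Filled points mark the 6 members with an unadjusted p under 0.05, from Ift57 at 0.92 to Rpgrip1 at −0.71, and no member was called over all genes.

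Apart from 1 member, the genes of both IFT complexes differed by between −0.13 and 0.07. Ift57, an IFT-B subunit that binds Ift20, had levels of 9.78 and 9.79 in knockout retinas, against 8.99 and 8.73 in control retinas. Both knockout arrays lay well above both controls, and the difference was the largest among the 45 members. It was 0.92 on the log2 scale (SE 0.12, 95% interval 0.63 to 1.21), or 1.89-fold, and had the 50th smallest p of all genes (limma adjusted p = 0.0886). Ift57 passed at an adjusted p of 0.0464 after quantile normalization of the arrays, 0.0206 when the dimmer genes (mean signal below its 50th percentile) were left out, and 0.00529 with a variance trend, settings that called 0.232%, 0.916% and 0.659% of the genes tested. It did not pass in the other settings that kept every array (limma adjusted p from 0.0572 to 0.158).

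The other 8 IFT-B genes lay between −0.13 and 0.07, and none of them had an unadjusted p under 0.05. Ift81, which with Ift74 carries tubulin, had levels of 8.77 and 8.82 in knockout retinas, against 8.92 and 8.87 in control retinas, a difference of −0.10 (SE 0.10, 95% interval −0.33 to 0.14). Ift88, a core subunit whose partial loss in mice disrupts outer segments, had −0.07 (95% interval −0.31 to 0.17), and Ift20, the subunit that also sits at the Golgi, had −0.08 (95% interval −0.34 to 0.18). Ift52 had −0.13, Ift74 −0.09, Ift172 −0.08, Ift80 0.02 and Ift27 0.07.

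The IFT-A genes Ift140 and Ift122 serve retrograde transport and the entry of membrane proteins. Ift140 had levels of 6.04 and 5.95 in knockout retinas, against 6.04 and 6.14 in control retinas, a difference of −0.10 (95% interval −0.34 to 0.15). Ift122 had 6.16 and 6.12 in knockout retinas, against 6.02 and 6.19 in control retinas, and its groups overlapped. Of 13 further IFT genes, 0 were called and 0 had an unadjusted p under 0.05, where the shares of all genes were 0.201% and 7.07%, and in so short a list a count of 0 is near those shares. Their differences ran from −0.23 to 0.22. The 2 with the smallest p were Ttc21b, an IFT-A subunit, at −0.23 (SE 0.10) and Ift46, an IFT-B subunit, at 0.22 (SE 0.11).

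The 4 genes of motors that pull the trains were not called, where 0.201% of all genes were. Kif3b, a motor subunit of kinesin-2, had levels of 7.20 and 7.33 in knockout retinas, against 7.45 and 7.59 in control retinas, so that both knockout arrays lay below both controls. Its difference was −0.26 (SE 0.11, 95% interval −0.52 to 0.01, limma adjusted p = 0.722). Its partner Kif3a had −0.01 (95% interval −0.29 to 0.27). Dync2h1, the heavy chain of dynein-2, had 8.08 and 8.07 in knockout retinas, against 8.17 and 8.17 in control retinas, a difference of −0.10 (95% interval −0.33 to 0.13) that was small but separated the groups. Kif17, a homodimeric kinesin-2, had −0.03. Among 7 other motor genes, Wdr60, an intermediate chain of dynein-2, had the smallest p, at −0.33 (SE 0.11, limma adjusted p = 0.603), and Wdr34, its partner chain, had −0.11.

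In the BBSome, 6 of 7 measured genes lay below 0 and 1 above, where 50.9% of all genes lay below 0. Leaving out 1 array turned the sign of Bbs7, Ttc8 or Bbs1. Bbs9, the scaffold around which the complex assembles, had levels of 8.84 and 8.88 in knockout retinas, against 9.30 and 9.28 in control retinas. The replicates lay within 0.04 of each other in the knockout and within 0.03 in the control, and the groups were far apart by comparison. The difference was −0.43 (SE 0.10, 95% interval −0.67 to −0.20, limma adjusted p = 0.329), so that 74.0% of the signal in control remained. It passed with a variance trend (limma adjusted p = 0.0438), but not in the other settings that kept every array (limma adjusted p from 0.0907 to 0.406). Bbs2 had 7.69 and 7.51 in knockout retinas, against 7.89 and 7.66 in control retinas, and the groups overlapped (−0.17, 95% interval −0.48 to 0.14). The remaining BBSome genes Bbs7, Bbs5, Bbs4, Ttc8 and Bbs1 ran from −0.15 to 0.02.

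Bbs10, Bbs12 and Mkks encode relatives of chaperonins that help the BBSome to assemble, and their median difference was −0.01. Mkks had 8.04 and 7.87 in knockout retinas, against 8.08 and 8.04 in control retinas (−0.11, 95% interval −0.37 to 0.15). Bbs12 had 8.42 and 8.24 in knockout retinas, against 8.43 and 8.09 in control retinas (0.07, 95% interval −0.28 to 0.43). Bbs10 had −0.01. Lztfl1, a regulator of BBSome entry into cilia, had −0.08 and was not called.

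Rpgrip1 stood apart from the other transition zone genes. Its protein anchors RPGR in the connecting cilium of rods and cones, and its loss in mice disorganises the outer segment. It had levels of 8.23 and 8.27 in knockout retinas, against 9.04 and 8.89 in control retinas. Both knockout arrays lay below both controls by more than the arrays of either genotype differed between themselves. The difference was −0.71 (SE 0.11, 95% interval −0.97 to −0.46, limma adjusted p = 0.122), or 60.9% of the control signal, with −0.81 between the arrays of replicate 1 and −0.62 between those of replicate 2. It passed when the dimmer genes were left out (limma adjusted p = 0.0276) and under a variance trend (limma adjusted p = 0.00972). It did not pass in the other settings that kept every array (limma adjusted p from 0.0829 to 0.225). The median of the rod marker list, given above, was −0.63, with differences from −3.01 to 0.05. The part of rod changes in the Rpgrip1 difference was not tested.

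Rpgr, the gene of its partner on the X chromosome, had 8.29 and 8.19 in knockout retinas, against 8.16 and 8.22 in control retinas, a difference of 0.05 (95% interval −0.19 to 0.29). Rpgrip1l, a relative of Rpgrip1 found at the transition zone of most cilia, had 7.10 and 7.20 in knockout retinas, against 7.25 and 7.39 in control retinas, a difference of −0.17 (95% interval −0.43 to 0.09). Its groups did not overlap, but the gap between them was narrower than the spread within either genotype.

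Cep290, a frequently mutated Leber congenital amaurosis gene and a bridge between membrane and microtubules, had 0.04 (95% interval −0.22 to 0.30). Spata7, which together with Rpgrip1 extends the photoreceptor's transition zone, had −0.04, and Lca5, which encodes lebercilin, had −0.11 (95% interval −0.35 to 0.13). Iqcb1 and Nphp4, genes of nephrocystins, had −0.05 and 0.10. The Joubert and Meckel syndrome genes Ahi1, Mks1, Tmem67 and Tctn1 had 0.02, −0.15, 0.07 and 0.08. Tctn1 alone among the members had 2 probe sets, and the other had −0.04. The median over the 12 transition zone genes was −0.01, and as many differences were positive as negative (6 each).

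**Figure D2:**
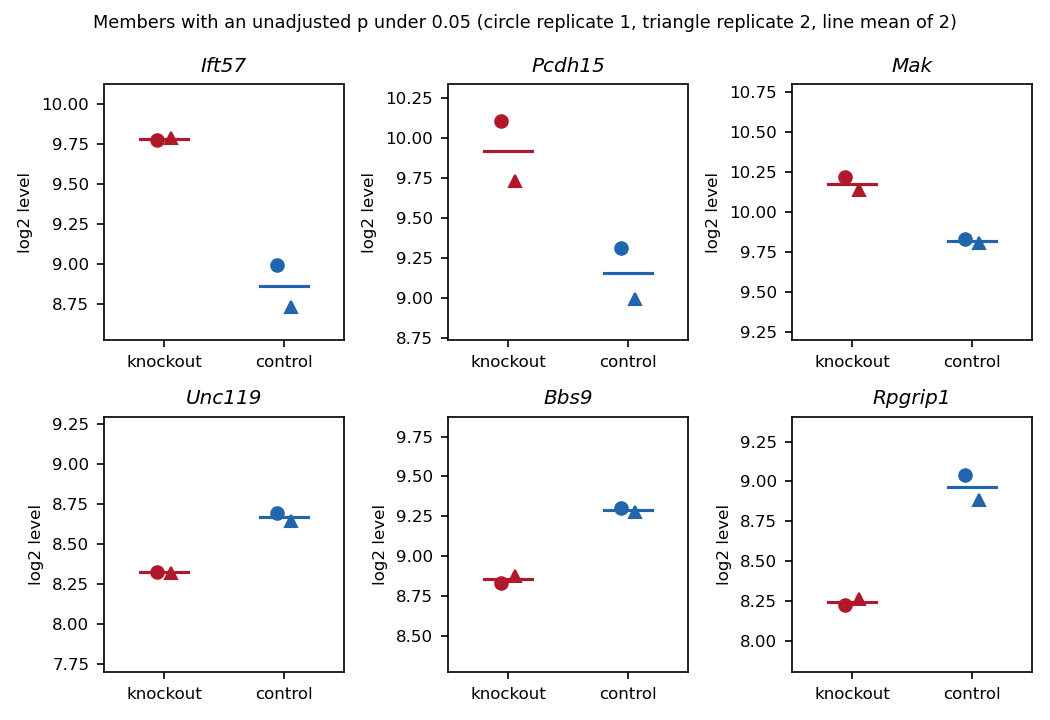
Log2 level on each array of the 6 members with an unadjusted p under 0.05, knockout at the left and control at the right of each panel, with circles for replicate 1, triangles for replicate 2 and a line at the mean of 2 arrays. Each panel spans the same range of log2 units. The genotypes do not overlap in any of the 6, which were chosen by p on these same arrays, and in 35.4% of all genes. The difference between the means is largest for Ift57 (0.92).

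Among 25 further transition zone and basal body genes, 18 differences were negative and 7 positive, where 50.9% of all genes lay below 0. Their median was −0.11, and none was called, where 0.201% of all genes were. Fam161a, a ciliary microtubule protein of photoreceptors mutated in retinitis pigmentosa, had 9.19 and 9.09 in knockout retinas, against 9.55 and 9.40 in control retinas (−0.34, SE 0.11, limma adjusted p = 0.602). Tmem216, a transition zone membrane protein, had 6.58 and 6.61 in knockout retinas, against 6.79 and 6.99 in control retinas (−0.29, SE 0.11, limma adjusted p = 0.661). In both genes the knockout arrays lay below the controls.

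The trafficking and axoneme genes included both directions. Unc119 encodes the carrier that binds the lipid tail of the transducin α subunit and returns it to the outer segment. It had 8.32 and 8.32 in knockout retinas, against 8.69 and 8.64 in control retinas, a difference of −0.35 (SE 0.10, 95% interval −0.58 to −0.11, limma adjusted p = 0.504), with 78.5% of the signal in control remaining. Its main cargo in rods, the product of Gnat1, had the smallest p of all genes, with levels of 9.46 and 9.76 in knockout retinas, against 12.65 and 12.58 in control retinas. Unc119b, a close relative of Unc119 made in many tissues, had 0.20 (SE 0.11). Arl3, the small GTPase that releases cargo from Unc119 inside the cilium, had 11.06 and 11.13 in knockout retinas, against 11.14 and 11.13 in control retinas, a difference of −0.04 (95% interval −0.27 to 0.20).

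Mak, a kinase that limits the length of the photoreceptor axoneme, lay higher on both knockout arrays than on either control array. It had 10.22 and 10.14 in knockout retinas, against 9.83 and 9.81 in control retinas, and the difference of 0.36 (SE 0.10, 95% interval 0.12 to 0.60, limma adjusted p = 0.504) corresponds to 1.28-fold. Rp1, an axonemal microtubule protein that Mak phosphorylates and that is outside the 47 members, had 9.94 and 9.90 in knockout retinas, against 10.77 and 10.54 in control retinas. Its difference of −0.73 (SE 0.12, limma adjusted p = 0.148) was the largest among 74 other ciliary genes measured. Rp1 passed when the dimmer genes were left out (limma adjusted p = 0.0359) and under a variance trend (limma adjusted p = 0.0107), and in no other setting tried. Tulp1, a photoreceptor protein needed to move opsins, had 8.43 and 8.48 in knockout retinas, against 8.54 and 8.59 in control retinas, a difference of −0.11 (95% interval −0.35 to 0.13). Tub, its relative made in many neurons, had −0.07.

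The 3 Usher genes all lay above 0, although Myo7a was at −0.11 without knockout replicate 2. Pcdh15, a protocadherin that in hair cells forms the tip link with the product of Cdh23 and in photoreceptors lies near the base of the outer segment, had 10.10 and 9.73 in knockout retinas, against 9.31 and 8.99 in control retinas. The groups did not overlap, although replicate 2 was lower than replicate 1 in both genotypes, by 0.37 in the knockout (−0.37) and 0.32 in the control (−0.32). The difference between genotypes was 0.76 (SE 0.17, 95% interval 0.35 to 1.18, limma adjusted p = 0.329), or 1.70-fold, with 0.79 between the arrays of replicate 1 and 0.74 between those of replicate 2. Cdh23 had 4.56 and 4.56 in knockout retinas, against 4.36 and 4.43 in control retinas (0.17, 95% interval −0.07 to 0.40). Myo7a, a myosin of photoreceptors and pigment epithelium, had 5.77 and 6.16 in knockout retinas, against 5.89 and 5.86 in control retinas, and its groups overlapped (0.09, 95% interval −0.27 to 0.44). Among 5 other Usher genes the 2 with the smallest p were Pdzd7 at −0.16 (SE 0.11) and Clrn1 at 0.12 (SE 0.12).

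The files hold no detection values, so that dim probe sets may report background. Cdh23, Myo7a, Mks1 and Kif17 were the 4 members with a mean signal below its 50th percentile. Ift140, Ift122, Ift172 and Nphp4 had group means of 5.95 to 6.14, close to the array medians of 5.99 to 6.04. The same limit may apply to them.

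**Figure D3:**
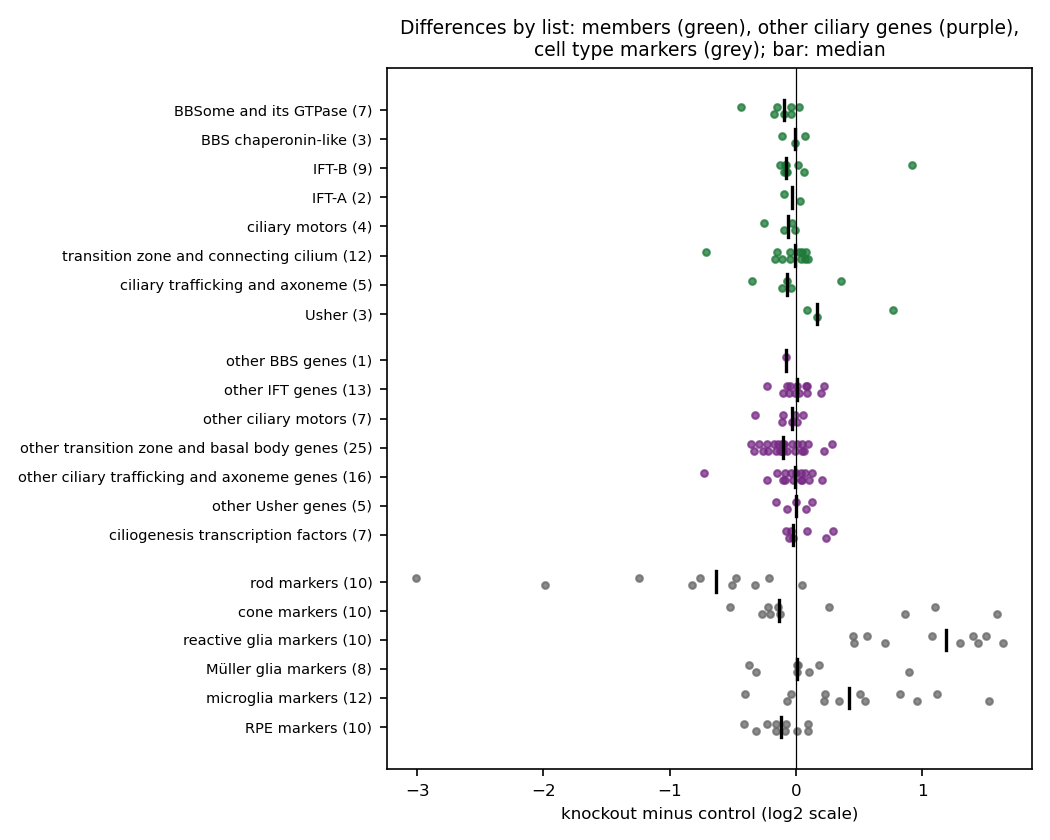
Difference between genotypes (knockout minus control, log2 scale, horizontal axis) for each measured gene of the member groups (green), other ciliary gene lists (purple) and cell type marker lists (grey), with a bar at each median and the number measured in parentheses. Ciliary lists have medians between −0.11 and 0.17, against −0.63 for rod markers and 1.19 for reactive glia markers.

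Across all 45 members, both knockout arrays lay above both controls in 4 and below in 14. Over all genes these shares were 17.0% and 18.4%, so that genotypes did not overlap in 18 of 45 members, against 35.4% of all genes. The 14 lower genes were Bbs9, Mkks, Ift74, Ift81, Ift140, Kif3b, Dync2h1, Rpgrip1, Rpgrip1l, Mks1, Lca5, Tulp1, Arl3 and Unc119, and apart from Bbs9, Rpgrip1, Unc119 and Kif3b their differences lay between −0.17 and −0.04. A difference over 0.5 on the log2 scale was found in 3 members (6.67%), Ift57, Pcdh15 and Rpgrip1, against 1.64% of all genes. Of the 45 differences 29 lay below 0, where 50.9% of all genes did. The 95% interval lay wholly within 0.5 of 0 in 36 members (80%), near the 77.6% of all genes.

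Of the 80 other ciliary genes, 74 were measured, and 0 were called by limma, where 0.201% of all genes were. At an unadjusted p under 0.05 there were 4 (5.41%), Rp1, Wdr60, Fam161a and Tmem216, all lower in the knockout, where 7.07% of all genes had such a p and 3.37% had it and were lower. The count was 2 without control replicate 1 or knockout replicate 1, and 7 without control replicate 2. Their median difference was −0.04, the same as that of the members to this precision. Of 7 transcription factors that drive ciliary genes 0 were called, and in so short a list a count of 0 is near the 0.201% of all genes. Rfx2 differed by 0.29 (SE 0.12, limma adjusted p = 0.706), and Foxj1, known for motile cilia, had 5.84 and 5.84 in knockout retinas, against 5.48 and 5.72 in control retinas (0.24, SE 0.12, limma adjusted p = 0.771). Rfx3, a factor of primary and motile cilia, had 0.09.

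The spread within a genotype was not the same for all members. Xist, which is made from the inactive X chromosome of females, stood at 4.07 and 10.66 in knockout retinas, against 4.09 and 10.47 in control retinas, so that in both genotypes it was high in replicate 2 alone. Replicate 2 was lower than replicate 1 in both genotypes in 16 members and higher in both in 12. The same direction in both genotypes was thus seen in 62.2% of the members, against 55.8% of all genes. Bbs7 had 8.62 and 8.27 in knockout retinas, against 8.77 and 8.42 in control retinas, so that the replicates differed by more than the genotypes (−0.15, 95% interval −0.57 to 0.26). Ift52 had 7.69 and 7.30 in knockout retinas, against 7.77 and 7.48 in control retinas and behaved likewise, and Ift27 ran the other way, with 6.18 and 6.52 against 6.18 and 6.40. Replicate number and Xist level cannot be told apart in these arrays, and the part of sex in these differences was not tested.

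**Figure D4:**
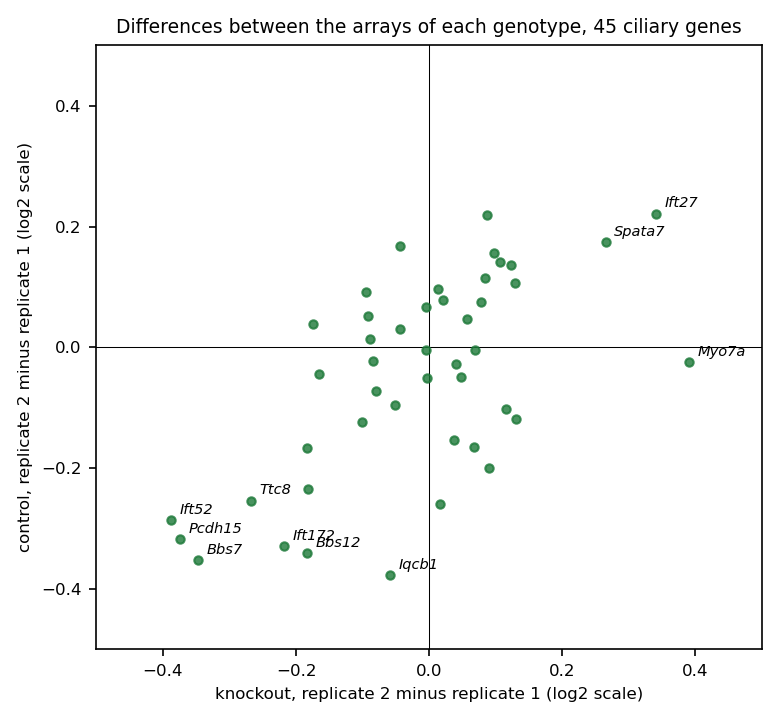
Replicate 2 minus replicate 1 (log2 scale) on the knockout arrays (horizontal axis) and on the control arrays (vertical axis) for the 45 measured ciliary genes. Points at the lower left, such as Bbs7, Ift52 and Pcdh15, were lower in replicate 2 of both genotypes, and Ift27 at the upper right was higher in both.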

How the data were processed

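Log2 values of 21897 probe sets were deposited by the authors for each of 4 arrays (array medians 5.99 to 6.04), and the log2 scale was taken from their range. Affy and limma are listed, with neither version nor role, per the submitters' processing notes. How background was corrected and arrays were normalized was not given in the sources used. The values were used as they stand.

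Gene names came from the platform annotation (20877 with 1 symbol, 175 with several, 845 with none, the last 2 kinds not used) and were checked against RefSeq gene IDs. Genotypes were compared by a two-sided moderated test (limma 3.58.1, R 4.3.3) with genotype as the sole term and no filter. P was adjusted by Benjamini-Hochberg across 19421 genes. The method was tested on simulated data with planted differences larger than that of any member and no shift between replicates. That test says little about differences of the size seen here. Differences are knockout minus control, SE is the moderated standard error, and intervals are 95% intervals from the same fit. An exact permutation test of 4 arrays cannot go below p = 0.333. P-values rest on the spread between pools of animals, which the moderated test draws toward that of all genes. This spread includes any difference that goes with the replicate number, and the number of arrays limits the precision.

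The members, the ciliary and marker lists and the alternatives were chosen with earlier results of these data known. Every member could be named. Array levels were given for members with an unadjusted p under 0.05 and for the 2 with the smallest p in each group, and Rpgr, Arl3, Tulp1, Myo7a, Bbs7, Ift52, Ift27 and Rfx3 were singled out after their values were seen. Other ciliary genes were named as the 2 with the smallest p in each list. Settings tried were quantile normalization, median centring, a low-signal filter, a variance trend, robust eBayes, probe set means, the replicate number as a block and leaving out each array.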

Additional observations from a re-analysis of the deposited data

How the results depend on the processing

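Of the 45 members 0 were called as reported, against 3 with a variance trend (Ift57, Rpgrip1 and Bbs9), 2 when dimmer genes (mean signal below its 50th percentile) were left out (Ift57 and Rpgrip1, of 41 members tested) and 1 after quantile normalization (Ift57). Of the other ciliary genes 0 were called as reported, against 1 (Rp1) with a variance trend and 1 without the dimmer genes. The cause was not tested. Median centring, robust eBayes, the mean of a gene's probe sets and leaving out each array called 0 in both. Members at an unadjusted p under 0.05 numbered 6 to 7 in the settings that kept every array, against 6 as reported. The other ciliary genes at that p numbered 4 to 9 in those settings, against 4 as reported. All genes at that p numbered 1357 to 1607 where every gene and array was kept, against 1374 as reported. Without the dimmer genes, 985 of 9711 genes had such a p.

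With the replicate block, 0 members were called and 7 had an unadjusted p under 0.05, as had 1607 of 19421 genes. The limma adjusted p of Pcdh15 was 0.158 with the block, against 0.329 as reported. It rose to 0.158 for Ift57 from 0.0886, to 0.225 for Rpgrip1 from 0.122 and to 0.406 for Bbs9 from 0.329. For Mak and Unc119 it was 0.503 and 0.511 with the block, against 0.504 for both as reported. The deviations of same-numbered arrays from their group means correlated at 0.239 over genes. The labels give no shared animal, litter or day, so the numbers were not taken as pairs. The replicate number did go with the level of Xist (4.07 and 4.09 in replicate 1, 10.66 and 10.47 in replicate 2). The block therefore also takes up any difference that goes with Xist. Over all genes 8 were called with the block, 89 without the dimmer genes and 128 with a variance trend, against 39 as reported. Of the listed cell type markers 2 were called with the block (Gnat1 and Reep6), against 11 as reported, a count added after the data were seen.

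Leaving out 1 array gave differences of 0.79 to 1.05 for Ift57, −0.79 to −0.64 for Rpgrip1, 0.58 to 0.95 for Pcdh15, −0.45 to −0.41 for Bbs9, 0.32 to 0.40 for Mak and −0.37 to −0.32 for Unc119, none past the adjusted threshold. Leaving out 1 array cannot turn the sign where the genotypes do not overlap, as in all 6 members at an unadjusted p under 0.05. The sign turned on leaving out at least 1 array in 19 of the 45 members, and the largest of them was 0.15 in size as reported. Their ranges were −0.054 to 0.10 for Bbs1, −0.33 to 0.024 for Bbs7, −0.17 to 0.095 for Ttc8, −0.097 to 0.086 for Bbs10, −0.10 to 0.24 for Bbs12, −0.11 to 0.24 for Ift27, −0.32 to 0.064 for Ift52, −0.031 to 0.066 for Ift80, −0.25 to 0.082 for Ift172 and −0.048 to 0.12 for Ift122. They were −0.11 to 0.090 for Kif3a, −0.076 to 0.014 for Kif17, −0.041 to 0.12 for Cep290, −0.24 to 0.14 for Iqcb1, −0.0011 to 0.043 for Ahi1, −0.012 to 0.16 for Tctn1, −0.18 to 0.088 for Spata7, −0.18 to 0.038 for Tub and −0.11 to 0.28 for Myo7a. With every array kept, the sign turned for Ift80 after median centring (−0.0007) and for Kif3a after quantile normalization (0.0037). Members below 0 numbered 25 to 31 on leaving out an array, against 29 as reported. Among the other 18 genes followed the sign turned for Xist alone, with its replicates far apart (−3.21 to 3.38). Without either control array limma called 0 of all genes (1355 and 1328 at an unadjusted p under 0.05), so such settings say little about the members. No detection values were given, and signal over background could not be measured.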
